A study of Rattus norvegicus with 40 samples.

Results

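The genes described here encode the protein machinery of oxidative phosphorylation in the mitochondrion, apart from Cox6c-ps1, whose symbol marks a pseudogene. They were chosen by name: a probe set had to carry exactly 1 gene symbol on the array's annotation, and that symbol had to start with Ndufa, Ndufb, Ndufc, Ndufs, Ndufv, Sdh, Uqcr, Cox4, Cox5, Cox6, Cox7, Cox8 or Atp5. Of 10411 genes with such a probe set, 88 met the rule, and where several probe sets served 1 gene, the one with the highest mean signal at 19 h was used. Complex I has 39 of them (6 core subunits, 28 supernumerary subunits and 5 assembly factors), complex II has 8 (4 subunits and 4 assembly factors), complex III has 7, complex IV has 18 (10 subunits, 5 isoforms typical of other tissues and 3 related genes) and complex V has 16. The rule used symbols and no difference between groups, but this family was picked with earlier results of these data known, and for 5 of the genes signal decided which probe set was used.

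Oxidative phosphorylation runs through 5 complexes in the inner mitochondrial membrane. Complexes I (NADH dehydrogenase) and II (succinate dehydrogenase) take electrons from NADH and succinate, complex III (cytochrome bc1) passes them to cytochrome c, and complex IV (cytochrome c oxidase) passes them to oxygen. Complexes I, III and IV pump protons as they do so, and complex V (ATP synthase) makes ATP as the protons flow back. Most subunits are nuclear genes, which are those on this array, and a smaller set is encoded in mitochondrial DNA. Hepatocytes are rich in mitochondria.

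The study asked how the liver's mRNA response to the dioxin TCDD, a ligand of the aryl hydrocarbon receptor (AHR), differs between rats that are sensitive to its lethality and rats that are resistant. The sensitive collective holds the Long-Evans strain (L-E) and Line-C (LnC), whose AHR is wild type. The resistant collective holds the Han/Wistar strain (H/W) and Line-A (LnA), whose receptor lacks a stretch of the transactivation domain. Both lines descend from intercrosses of the 2 strains. Males of 10 to 12 weeks received 1 gavage dose of 100 µg/kg TCDD or of the corn oil vehicle, and livers were taken at 19 h from all 4 strains/lines under both treatments and at 3 h from TCDD-treated L-E and H/W rats only, with 4 rats per group and 1 RAE230A array per rat. By the study's methods the rats of a treatment group shared a cage, so cage and group cannot be told apart, and the lines differ from the parental strains in more than the AHR.

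The deposited values are log2 signals, and every difference below is a difference of 2 group means on that scale, so that a difference of 1 is a doubling. Array medians ran from 3.52 to 3.76 over the 40 arrays, and arrays correlated with those of their own group at a mean of 0.992 to 0.996. The tissue label was checked with 10 hepatocyte genes, whose mean ran from 13.33 to 13.83 on single arrays, with Alb (albumin) at 16.38 to 16.70. In this bulk tissue, fewer cells of a type and less RNA per cell cannot be told apart. Arrays were scanned on 5 days: the LnA and LnC arrays on 1 day, the 3 h arrays on another, and the L-E and H/W arrays of 19 h on the remaining 3. Parental strain against line is therefore confounded with the scan day, as is 3 h against 19 h.

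Of the 88 genes, 80 had all 10 group means above the highest array median. The 5 with all group means below the lowest array median were Cox4i2, Cox6a2, Cox6b2, Cox7a1 and Ndufa4l2, with group means of 1.82 to 3.43. Cox6a2 and Cox7a1 are the heart and muscle isoforms of their subunits, Cox6b2 is the testis isoform and Cox4i2 is best known from lung. Cox8b, another heart and muscle isoform, ran from 2.90 to 3.57, and the assembly factors Ndufaf5 and Ndufaf7 lay at 3.56 to 3.79 and 3.38 to 3.97. Probe sets bind with different strength, so levels are compared between groups and not between genes.

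The start regions of 4 genes that recur below are shown with short motifs searched in them. The sequences are the 120 bases before the annotated start in RefSeq (assembly GRCr8), written 5′ to 3′ on the gene's strand, and the capitals mark the motif matches: GCGTG (or its complement CACGC), the core of the AHR response element, in Cox5a and Atp5f1c, GCGCATGC (a site of the transcription factor NRF1) in Uqcrc1, and CCGGAAG (or CTTCCGG, a site of the ETS factor GABP) in Cox8a.
Cox5a: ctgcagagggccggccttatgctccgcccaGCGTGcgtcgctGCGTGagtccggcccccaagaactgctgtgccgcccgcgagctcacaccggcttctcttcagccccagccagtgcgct
Atp5f1c: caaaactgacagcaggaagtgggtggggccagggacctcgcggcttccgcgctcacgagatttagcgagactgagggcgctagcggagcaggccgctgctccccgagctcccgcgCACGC
Uqcrc1: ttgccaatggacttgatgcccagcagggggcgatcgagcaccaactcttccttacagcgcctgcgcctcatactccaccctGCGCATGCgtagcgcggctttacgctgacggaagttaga
Cox8a: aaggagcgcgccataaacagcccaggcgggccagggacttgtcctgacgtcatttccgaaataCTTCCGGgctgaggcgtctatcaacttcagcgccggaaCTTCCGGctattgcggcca
They lie at chr8:66818164-66818283 (plus strand), chr17:73333565-73333684 (plus), chr8:118468103-118468222 (plus) and chr1:213833624-213833743 (minus).

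Of the 88 genes, 80 had a RefSeq window of 300 bases, from 250 before the start to 50 after it, and Atp5pd, Cox4i2, Cox6a1, Cox6c, Cox6c-ps1, Ndufa8, Ndufb9 and Uqcr11 had none. Counting both strands, GCGTG was found in 40 of the 80 windows (50%) and in 29.7% of all 33469 windows. GCGCATGC was found in 9 windows (11.2%, against 2.47% of all), CCGGAAG in 24 (30%, against 8.75%) and AAGATGGC, a site of the factor YY1, in 17 (21.2%, against 3.17%). The windows of these genes also held more G and C, with a median of 56% against 51.7%. The Ndufc1 and Uqcr10 windows held none of the 4 motifs searched. A match of letters is a description of the sequence and not evidence of binding.

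TCDD at 19 h was associated with higher mRNA of a few of these genes, most of them in complex V. In L-E rats 2 genes rose (adjusted p under 0.01, limma with Benjamini-Hochberg adjustment over all 10411 genes), Atp5f1c and Atp5pd, against 0.941% of all genes called higher. In LnC rats the same 2 genes rose, against 0.644% of all genes. In LnA rats 1 gene rose, Uqcrc1, against 0.73% of all genes, in the fit without a block. With the replicate number as a block 0 passed in LnA rats. In H/W rats 0 rose, against 0.317%. No gene of the 88 fell in any strain/line at this threshold, where 1.11%, 0.49%, 0.355% and 0.106% of all genes fell in L-E, LnC, LnA and H/W rats. In H/W rats, at an unadjusted p under 0.05, 12 of the 88 were higher (5.68% of all genes) and 1 was lower (6.43%).

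Atp5f1c encodes the gamma subunit of ATP synthase, the rotating shaft of the F1 part. In L-E rats it read 12.53, 12.36, 12.38 and 12.60 with corn oil and 12.82, 12.89, 12.93 and 12.94 with TCDD. In LnC rats it read 12.51, 12.47, 12.41 and 12.33 with corn oil and 12.86, 12.86, 12.88 and 12.94 with TCDD. The 4 TCDD rats lay above all 4 corn oil rats in both, and the same separation held in LnA and H/W rats. LnA rats read 12.57, 12.59, 12.47 and 12.43 with corn oil and 12.94, 13.11, 12.92 and 12.87 with TCDD. H/W rats read 12.45, 12.22, 12.54 and 12.45 with corn oil and 12.70, 12.59, 12.66 and 12.68 with TCDD. No group with corn oil reached its TCDD counterpart. TCDD minus corn oil came to 0.43 ± 0.06 (SE) for L-E, 0.45 ± 0.04 for LnC, 0.44 ± 0.06 for LnA and 0.24 ± 0.07 for H/W rats, with adjusted p-values by limma of 0.00906, 0.00254, 0.0113 and 0.190. Thus Atp5f1c passed the threshold in the sensitive collective only, although the value in LnA rats was as large. Without 1 array at a time the adjusted p ranged from 0.00886 to 0.0319 in L-E rats, where the call was lost in 7 of 8 fits, and from 0.00514 to 0.0125 in LnC rats, where leaving out replicate 2 or 3 of either group took it away.

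Atp5pd encodes subunit d of the stalk that holds the F1 part still. Its L-E values were 11.73, 11.59, 11.64 and 11.74 with corn oil and 12.01, 12.02, 12.14 and 12.12 with TCDD. Its LnC values were 11.64, 11.65, 11.75 and 11.78 with corn oil and 12.13, 12.22, 12.28 and 12.14 with TCDD. In each of them all TCDD rats stood above all corn oil rats, and the resistant rats showed the same order. The LnA values were 11.74, 11.68, 11.70 and 11.71 with corn oil against 11.86, 12.15, 12.07 and 11.95 with TCDD, and the H/W values were 11.50, 11.36, 11.59 and 11.59 against 11.78, 11.76, 11.83 and 11.97. Its differences were 0.39 ± 0.05 for L-E, 0.49 ± 0.05 for LnC, 0.30 ± 0.06 for LnA and 0.32 ± 0.07 for H/W rats (limma, adjusted p 0.00480, 0.00286, 0.0498 and 0.0909). The call was lost in all 8 fits without 1 array in L-E rats (0.0106 to 0.0196) and in LnC rats in the fits that dropped TCDD rat 2 or corn oil rat 1, 2 or 3 (0.00678 to 0.0141 over the 8 fits). In 1 fit over the 8 groups at 19 h, Atp5pd passed in every strain/line, with an adjusted p by limma of 0.00127 for H/W and 0.00273 for LnA rats, and Atp5f1c passed in LnA rats (4.0e-05) but not in H/W rats (0.0193). With scan day as a block the L-E calls were lost (adjusted p by limma 0.0195 for Atp5f1c and 0.0122 for Atp5pd), while within days the differences kept their direction, at 0.30 and 0.28 on the day with 1 rat per group and 0.47 and 0.43 on the day with 3.

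The remaining ATP synthase genes were mostly above 0. Of the 16 complex V genes, 15, 15, 14 and 16 were above 0 with TCDD in L-E, LnC, LnA and H/W rats, with median differences of 0.18, 0.17, 0.17 and 0.08. Atp5mg, which encodes subunit g of the membrane part, differed by 0.30 in L-E and 0.41 in LnC rats without passing the threshold (limma, adjusted p 0.0109 and 0.0386), and by 0.17 in LnA and 0.11 in H/W rats. Atp5f1b, which encodes the catalytic beta subunit, was nearly flat, with differences of 0.05, -0.01, -0.04 and 0.01 in L-E, LnC, LnA and H/W rats. The lowest value of the complex was -0.08, for Atp5mf in L-E rats, and in H/W rats the lowest was Atp5f1e, the epsilon subunit, at 0.01.

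**Figure D1:**
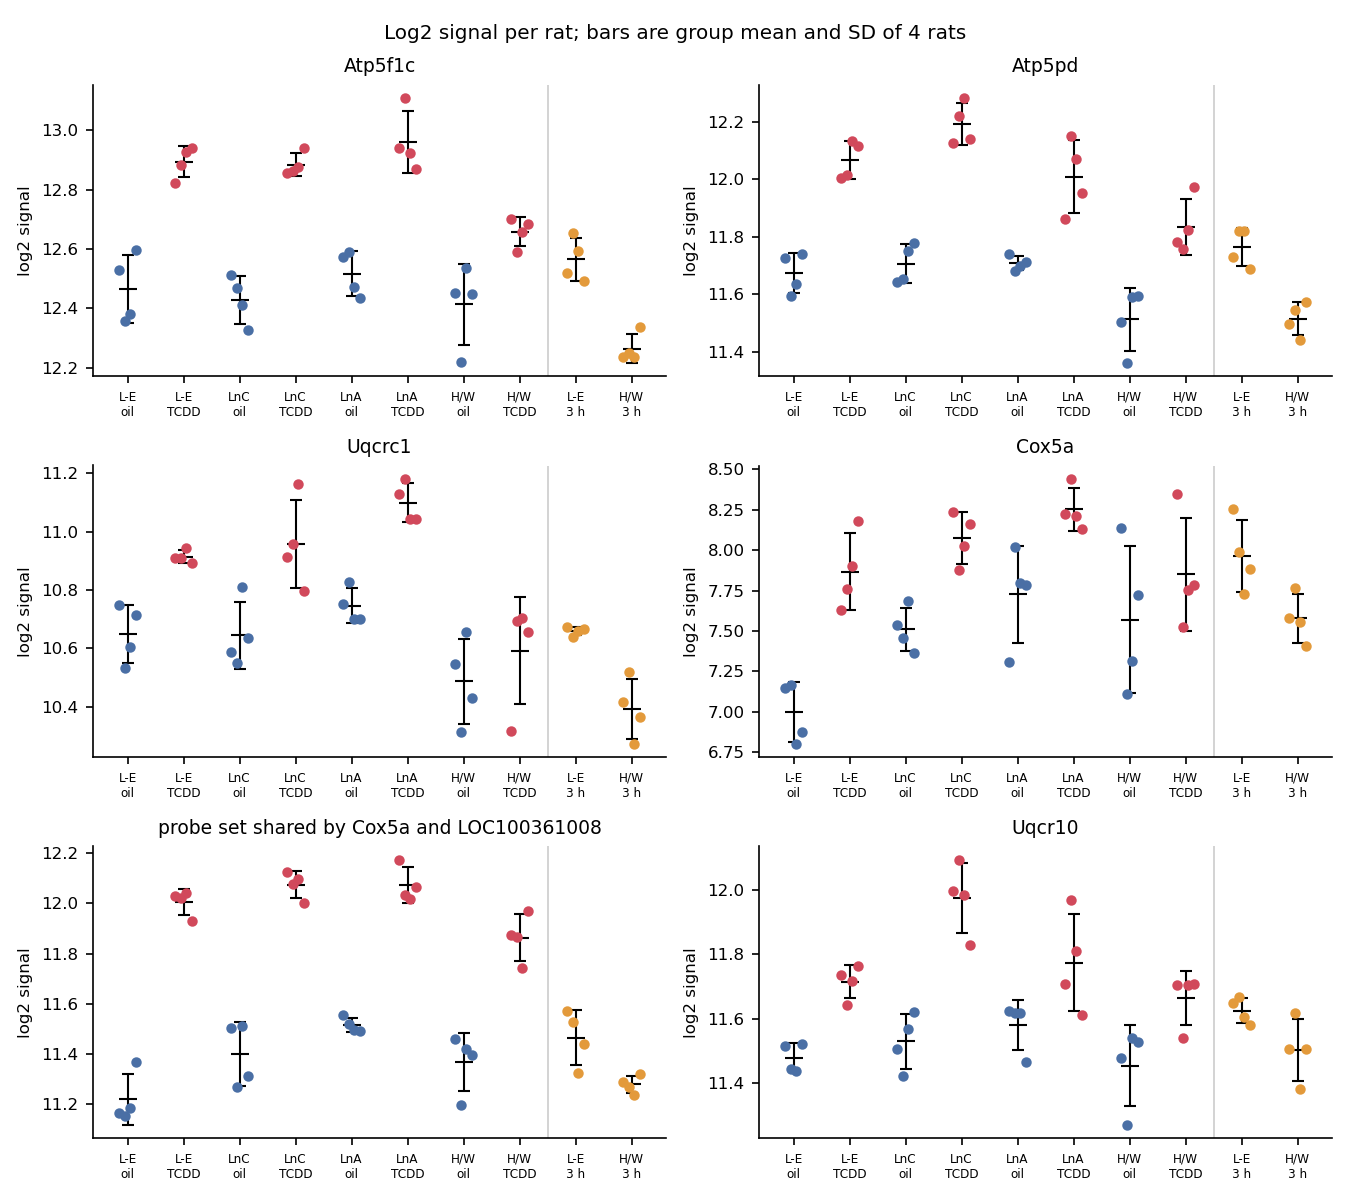
Log2 signal (vertical axis) of each rat for 5 genes and 1 probe set shared by Cox5a and LOC100361008, by strain/line, with corn oil in blue, TCDD at 19 h in red and TCDD at 3 h in orange. Bars give the mean and SD of 4 rats, and all TCDD rats lie above all corn oil rats of their strain/line at 19 h for Atp5f1c, Atp5pd and the shared probe set.

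Complex III gave the call in LnA rats. Uqcrc1, the core protein 1 of cytochrome bc1, read 10.75, 10.83, 10.70 and 10.70 with corn oil and 11.13, 11.18, 11.04 and 11.04 with TCDD in LnA rats. In H/W rats it read 10.55, 10.32, 10.66 and 10.43 with corn oil and 10.32, 10.69, 10.70 and 10.66 with TCDD. The groups were separate in LnA rats and overlapped in H/W rats, where TCDD replicate 1 lay level with the lowest corn oil rat. The differences were 0.35 ± 0.05 for LnA, 0.26 ± 0.05 for L-E, 0.31 ± 0.09 for LnC and 0.11 ± 0.11 for H/W rats (limma, adjusted p 0.00907, 0.0241, 0.126 and 0.636). In LnA rats the replicate number may pair the rats, and with it as a block the adjusted p was 0.0187, while 0 of the 88 genes passed. Leaving out any 1 of the 8 LnA arrays also took the call away (0.0163 to 0.0380). Uqcr10, a small subunit of the same complex, differed by 0.24 in L-E and 0.45 in LnC rats (limma, adjusted p 0.0108 and 0.0151), and by 0.19 in LnA and 0.21 in H/W rats. Of the 7 complex III genes, 6, 7, 6 and 6 were above 0 in L-E, LnC, LnA and H/W rats, with medians of 0.12, 0.16, 0.14 and 0.11. The lowest of each strain/line were Uqcrfs1 (the Rieske iron-sulphur protein) at -0.04 in L-E, Uqcr11 at 0.13 in LnC, Uqcrh at -0.02 in LnA and Uqcrq at -0.17 in H/W rats.

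Complex IV had the largest TCDD difference of any of the 88 genes. Cox5a, which encodes a subunit of cytochrome c oxidase, read 7.15, 7.16, 6.80 and 6.88 with corn oil and 7.63, 7.76, 7.90 and 8.18 with TCDD in L-E rats. LnC rats read 7.54, 7.46, 7.68 and 7.36 with corn oil and 8.24, 7.88, 8.03 and 8.16 with TCDD. The groups did not overlap in L-E, LnC or LnA rats, and they overlapped in H/W rats, whose corn oil replicate 1 read 8.14 and whose other corn oil rats read 7.11, 7.32 and 7.72. The differences were 0.87 ± 0.14, 0.57 ± 0.10, 0.53 ± 0.15 and 0.28 ± 0.26 in L-E, LnC, LnA and H/W rats, none past the threshold (limma, adjusted p 0.0141, 0.0270, 0.128 and 0.628).

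A brighter probe set is annotated to both Cox5a and LOC100361008 and so falls outside the rule. It was examined after the values were seen, in a fit over all 15866 probe sets that are not controls, and its signal cannot be assigned to either gene. It read 11.17, 11.15, 11.19 and 11.37 with corn oil and 12.03, 12.02, 12.04 and 11.93 with TCDD in L-E rats. In H/W rats it read 11.46, 11.20, 11.42 and 11.40 with corn oil and 11.88, 11.86, 11.74 and 11.97 with TCDD. The TCDD rats stood above the corn oil rats in all 4 strains/lines. The differences came to 0.78 ± 0.05 for L-E, 0.67 ± 0.06 for LnC, 0.56 ± 0.04 for LnA and 0.49 ± 0.07 for H/W rats (limma over the probe sets, adjusted p 0.000864, 0.00283, 0.00114 and 0.0236). The signal thus rose in all but the H/W rats at the 0.01 threshold, and the adjusted p without 1 array ranged from 0.000323 to 0.00505 for L-E, 0.00687 to 0.0140 for LnC, 0.00174 to 0.00812 for LnA and 0.0272 to 0.0801 for H/W rats. With the replicate block it was 0.0118 in LnA rats.

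None of the 18 complex IV genes passed the threshold. Of them, 14, 17, 10 and 9 were above 0 in L-E, LnC, LnA and H/W rats, with medians of 0.02, 0.14, 0.02 and 0.00, and among the 10 subunits used in liver the counts were 8, 10, 8 and 8. Cox5b, the other subunit with a Cox5 name, differed by 0.28, 0.30, 0.21 and 0.12 (adjusted p from limma 0.0831, 0.0360, 0.157 and 0.511). The LnC groups were also separate for Cox5b, Cox6b1 (0.30), Cox7b (0.21) and Cox8a (0.20), while Cox8b, at 0.40 from a low signal, overlapped. Ndufa4l2 was the lowest in L-E rats at -0.10, and Cox6c-ps1 in LnC, LnA and H/W rats at -0.02, -0.14 and -0.13. Cox4i1, the ubiquitous isoform of subunit 4, differed by 0.04, 0.10, 0.04 and 0.17. The 5 isoforms of other tissues had medians of 0.01, 0.02, -0.02 and -0.04, and 4 of the 5 had every group mean below the lowest array median.

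Complex I, the largest complex, had no call in any strain/line. Its 39 genes were above 0 in 33, 36, 34 and 20 cases in L-E, LnC, LnA and H/W rats, with medians of 0.08, 0.19, 0.11 and 0.00. The 6 core subunits, which house the electron-carrying centres, had medians of 0.21, 0.27, 0.18 and 0.06, and the 28 supernumerary subunits had 0.07, 0.15, 0.09 and -0.02. Ndufa6, a supernumerary subunit, ran the other way and read 10.55, 10.43, 10.68 and 10.68 with corn oil and 10.27, 10.20, 10.36 and 10.17 with TCDD in L-E rats. All its TCDD rats lay below all its corn oil rats there, with a difference of -0.33 ± 0.07 (adjusted p from limma 0.0320), and the values in LnC, LnA and H/W rats were -0.17, -0.18 and -0.10. Ndufa7 was also below 0 in all 4, at -0.13, -0.11, -0.15 and -0.22.

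Some complex I genes had larger differences in some strains/lines without passing the threshold. Ndufb8, a supernumerary subunit, differed by 0.30 in L-E rats (adjusted p from limma 0.0265) and by 0.17, -0.01 and -0.02 in LnC, LnA and H/W rats. Ndufs3 and Ndufab1, a core subunit and the acyl carrier protein, differed by 0.35 and 0.31 in LnA rats (0.0163 and 0.0150 by limma). They differed by 0.23 and 0.26 in L-E, 0.28 and 0.20 in LnC and 0.03 and 0.05 in H/W rats. Ndufa8 and Ndufb5 differed by 0.42 and 0.27 in LnC rats (0.0290 and 0.0479 by limma), 0.21 and 0.04 in L-E, 0.16 and -0.04 in LnA and -0.02 and 0.07 in H/W rats. The assembly factor Ndufaf4 had the largest difference of the complex in L-E rats, 0.72 ± 0.29, with an adjusted p from limma of 0.236, and Ndufaf7 had the largest in LnA and H/W rats at 0.38 and 0.50 from a low signal.

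In complex II, 6, 7, 5 and 7 of the 8 genes were above 0 in L-E, LnC, LnA and H/W rats, with medians of 0.13, 0.17, 0.04 and 0.09, and none passed the test. Sdhc, which anchors the enzyme in the membrane, differed by 0.17, 0.27, 0.27 and 0.23. The assembly factors had the widest values, with Sdhaf1 at 0.45 in L-E and 0.39 in LnA rats (adjusted p from limma 0.0931 and 0.393) and Sdhaf4 at 0.51 in H/W rats (0.164 by limma). Sdhaf3 was below 0 in L-E, LnC and LnA rats, at -0.21, -0.20 and -0.12, and Sdhd, the second membrane anchor, was at -0.12 in LnA rats, where another of its probe sets gave 0.21. The lowest of the complex in H/W rats was Sdhaf2 at -0.02.

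**Figure D2:**
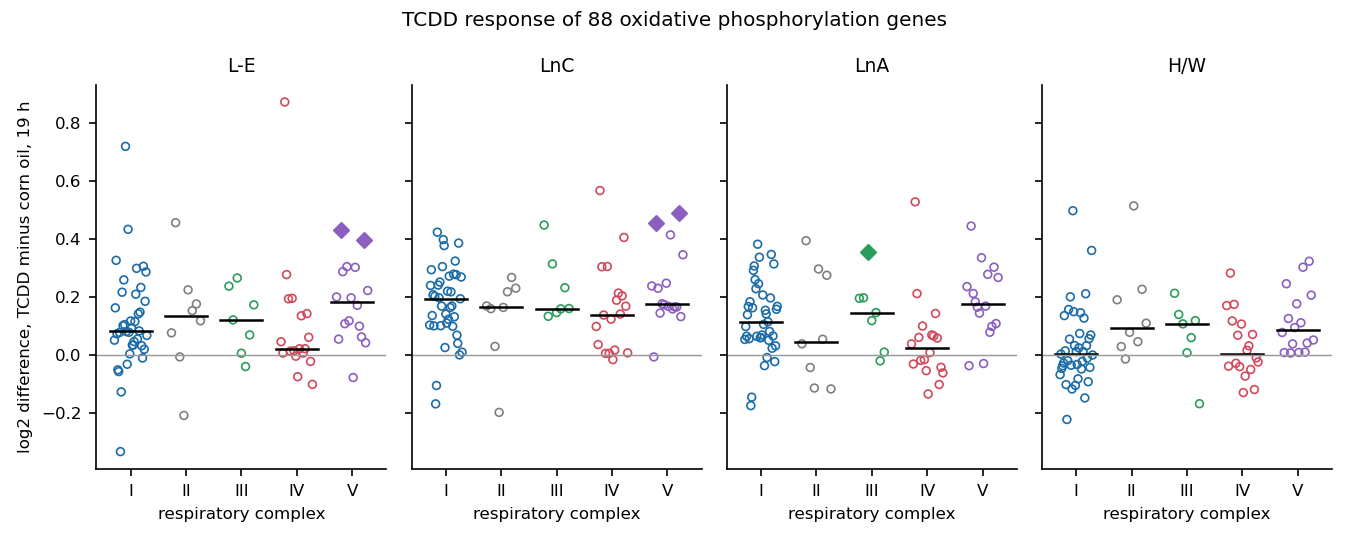
Log2 difference, TCDD minus corn oil at 19 h (vertical axis), of each of the 88 genes by complex (horizontal axis), with 1 panel per strain/line. Filled diamonds passed an adjusted p under 0.01 in fits without a block and black lines mark medians, which for complex V were 0.18, 0.17, 0.17 and 0.08 for L-E, LnC, LnA and H/W rats.

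Over all 88 genes, 74, 82, 69 and 58 were above 0 in L-E, LnC, LnA and H/W rats, where 66.2%, 57.3%, 37.4% and 29.9% of all genes were. Many of the other genes have low signal, and among the 6246 genes in the upper 60% by signal the shares were 58.4%, 53.8%, 51.1% and 45.1%. The medians of the 88 were 0.10, 0.17, 0.10 and 0.03, beside 0.01, 0.00, -0.01 and -0.04 over all genes. At an unadjusted p under 0.05, 25, 43 and 20 were higher in L-E, LnC and LnA rats (10.7%, 7.91% and 7.93% of all genes), and 1, 0 and 0 were lower (8.18%, 7.03% and 6.31%). At an adjusted p under 0.05, 7, 9, 5 and 0 were higher in L-E, LnC, LnA and H/W rats (3.09%, 2.12%, 1.84% and 0.932% of all genes) and 1, 0, 0 and 0 were lower (3.4%, 1.51%, 1.36% and 0.547%). Groups were separate and higher with TCDD for 13, 26, 13 and 6 genes in L-E, LnC, LnA and H/W rats (7.31%, 5.35%, 4.82% and 3.28% of all genes), and separate and lower for 1, 0, 0 and 1 (5.95%, 4.55%, 4.08% and 4.79%). In direction alone, 48 genes were above 0 in all 4 strains/lines (14.1% of all genes), and Ndufa6, Ndufa7 and Cox6c-ps1 were below 0 in all 4 (15.4%).

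**Figure D3:**
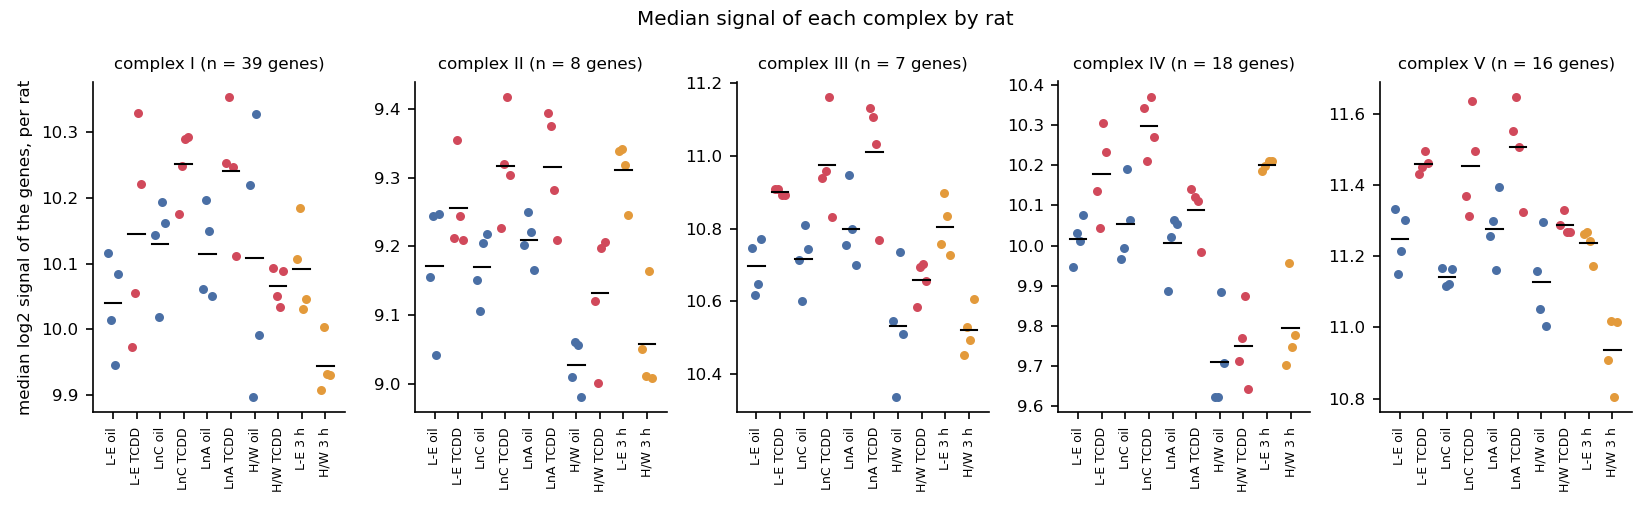
Median log2 signal of each complex's genes (vertical axis) in every rat of the 10 groups, with a line at the group mean. For complex V, L-E rats ran from 11.15 to 11.33 with corn oil and from 11.43 to 11.50 with TCDD at 19 h.

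Markers of immune cells and of hepatocytes were read beside these values, and their medians had either sign. The 8 measured markers of Kupffer and other immune cells were above 0 in 7, 1, 5 and 1 cases in L-E, LnC, LnA and H/W rats, with medians of 0.22, -0.12, 0.04 and -0.14. Their mean on single arrays ran from 7.18 to 7.61 with corn oil and from 7.27 to 7.87 with TCDD in L-E rats. In LnC rats it ran from 7.17 to 7.45 and from 7.05 to 7.43. Hepatocyte markers had medians of 0.04, 0.05, -0.04 and -0.06, and none of the 10 passed the 0.01 threshold in any strain/line. Their part in the differences was not tested.

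Whether the TCDD difference itself varied between sensitive and resistant rats was tested as a difference of differences. All the rats carry an AHR, so its role was not tested. In the collective comparison (mean TCDD difference of L-E and LnC minus that of H/W and LnA, 32 arrays), 0 of the 88 genes passed by limma, against 0.0576% of all genes called higher and 0.0384% lower. At an unadjusted p under 0.05, 9 were higher (5.16% of all genes) and 0 lower (2.78%). The lowest adjusted p was 0.132, for Ndufb8 at 0.25, and the median of the 88 was 0.06 beside 0.04 over all genes. In the comparison of L-E with H/W rats 0 passed by limma (0.00961% of all genes higher and 0.0288% lower), 6 were higher at an unadjusted p under 0.05 (6.58%) and 1 lower (3.12%), and the lowest adjusted p was 0.205, again for Ndufb8, at 0.32. Between LnC and LnA rats 0 passed by limma (0.0384% of all genes in each direction), 6 were higher at an unadjusted p under 0.05 (2.26%) and 0 lower (2.51%), and the lowest adjusted p was 0.708. The probe set shared by Cox5a and LOC100361008 had a collective difference of 0.21 with an adjusted p from limma of 0.372. The calls in L-E, LnC and LnA rats and their absence in H/W rats were therefore not shown to differ.

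Without TCDD, a few genes differed between strains. In corn oil rats 3 of the 88 were higher in L-E than in H/W rats (0.634% of all genes) and 0 lower (0.365%). Ndufc1, a small supernumerary subunit of complex I, read 11.16, 11.13, 11.10 and 11.17 in L-E and 10.78, 10.60, 10.63 and 10.61 in H/W rats. Cox8a, the ubiquitous isoform of the smallest subunit of complex IV, read 12.23, 12.23, 12.25 and 12.39 in L-E and 11.95, 11.95, 11.91 and 11.63 in H/W rats. Cox4i1 read 12.67, 12.60, 12.53 and 12.65 in L-E and 12.14, 12.12, 12.38 and 12.08 in H/W rats. For all 3 genes every L-E rat was above every H/W rat. The differences were 0.48 ± 0.06 for Ndufc1, 0.41 ± 0.07 for Cox8a and 0.43 ± 0.07 for Cox4i1 (adjusted p from limma 0.000368, 0.00870 and 0.00700). At an adjusted p under 0.05, 5 were higher (1.49%), with Cox7a2l (0.38) and Atp5f1a (0.25) added, and 0 lower (1.15%). Over the 88, 55 were above 0 (30.2% of all genes and 44.6% of the 6246 genes of higher signal). The median was 0.07, beside -0.05 over all genes and -0.03 in the upper 60% by signal. The lowest values were on the other side and did not pass. Ndufaf4, an assembly factor of complex I, was at -0.89 ± 0.30, with means of 5.37 in L-E and 6.26 in H/W rats and every L-E rat below every H/W rat (0.159 by limma), and Cox5a and Ndufa8 were at -0.57 and -0.45 (0.166 and 0.0515 by limma). With scan day as a block Ndufc1 passed (0.48, adjusted p by limma 0.00183), while Cox4i1 (0.40, 0.0313) and Cox8a (0.33, 0.0174) did not. Within the 2 days that held both strains the differences were 0.38 and 0.52 for Ndufc1, 0.27 and 0.36 for Cox8a and 0.53 and 0.35 for Cox4i1. Its call was lost in 2 of the 4 fits that left out 1 replicate number (0.00231 to 0.0135), that of Cox4i1 in 3 (0.00629 to 0.0898) and that of Cox8a in all 4 (0.0201 to 0.0640).

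The lines placed Ndufc1 differently. LnA rats, which carry the H/W type of AHR, read 11.29, 11.14, 11.11 and 11.12 with corn oil, like L-E rats, while LnC rats, which carry the L-E type, read 10.88, 10.73, 10.90 and 10.98. The LnA values overlapped those of L-E rats, and the LnC values lay below both and overlapped those of H/W rats. LnC minus LnA was -0.29 for Ndufc1 and -0.35 for Cox8a (adjusted p from limma 0.0244 and 0.0414), and 0 of the 88 genes passed 0.01 in that comparison (0.192% of all genes higher and 0.202% lower). At an adjusted p under 0.05 these 2 were lower (0.528% of all genes) and 0 higher (0.499%), and 64 of the 88 were below 0 (64.2%). Above 0 were 24 of the 88 and 47.5% of the 6246 genes of higher signal. LnC minus L-E was -0.27 for Ndufc1 (0.0127 by limma) and -0.42 ± 0.07 for Cox8a (0.00453), the 1 gene that passed (1.27% of all genes lower and 1.14% higher). At an adjusted p under 0.05, 3 were higher (3.66%) and 5 lower (3.49%). Of the 88, 46 were above 0 (71.8% of all genes and 59.1% of the 6246 genes of higher signal). Without replicate 1, 2 or 3 that call was lost (0.00186 to 0.0538 over the 4 fits), and this contrast cannot be told apart from scan day.

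LnA exceeded H/W rats for 5 genes (0.999% of all genes), and 0 were lower (0.903%). At an adjusted p under 0.05, 17 were higher (2.91%) and 0 lower (2.72%). The 5 were Ndufc1 at 0.51 ± 0.06, Uqcrq at 0.34 ± 0.06, Cox7b at 0.40 ± 0.07, Atp5po at 0.47 ± 0.09 and Ndufv3 at 0.52 ± 0.10 (adjusted p from limma 0.000238, 0.00468, 0.00650, 0.00667 and 0.00918). They come from complexes I, III, IV and V: Uqcrq is a small subunit of complex III, Cox7b a small subunit of complex IV, Atp5po the stalk protein that confers oligomycin sensitivity and Ndufv3 a subunit next to the flavin site. The 88 genes had 70 values above 0 (64.6% of all genes and 56.5% of the 6246 genes of higher signal). Their median was 0.13, beside 0.02 over all genes and 0.03 in the upper 60% by signal. With each array centred on its median 1 of the 5 passed, Ndufc1, and in fits without 1 replicate number between 0 and 1 passed, with Ndufc1 called in 3 of 4 and the other 4 genes in none. Kupffer and immune cell markers averaged 6.75 to 6.81 on the LnA corn oil arrays and 7.08 to 7.22 on those of H/W rats, and their part was not tested. Here too strain and scan day cannot be told apart.

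A second probe set outside the rule, annotated to both Ndufa10 and Ndufa10l1, separated the corn oil H/W rats from the other strains/lines. Its signal cannot be assigned to either gene. Its corn oil values were 6.77, 6.06, 7.17 and 7.13 in H/W rats and 7.96, 7.92, 7.96 and 8.12 in L-E rats. LnC rats read 7.91, 7.66, 7.87 and 7.72, and LnA rats 8.27, 8.63, 8.44 and 8.52. Every H/W corn oil rat was below every rat of the other strains/lines. With TCDD, H/W rats read 7.41, 7.65, 7.46 and 6.77 at 19 h and 7.05, 7.67, 7.60 and 7.10 at 3 h. With corn oil, L-E minus H/W was 1.21 and LnA minus H/W 1.68 (adjusted p from limma over the probe sets 0.00329 and 0.000225). At 3 h after TCDD L-E minus H/W was 0.88 (0.0271 by limma). LnA minus H/W cannot be told apart from scan day.

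**Figure D4:**
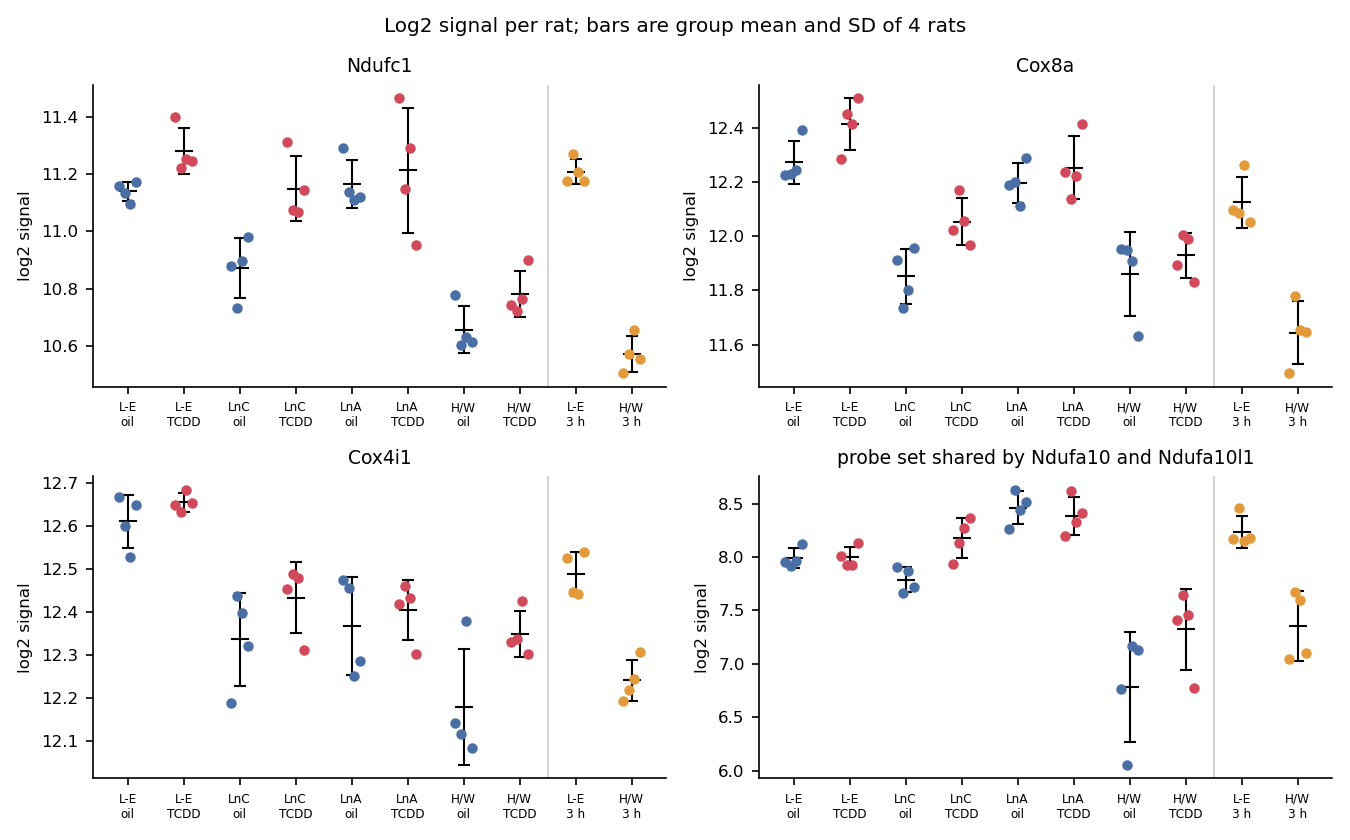
Log2 signal (vertical axis) of each rat for Ndufc1, Cox8a, Cox4i1 and the probe set shared by Ndufa10 and Ndufa10l1, by strain/line, with corn oil in blue, TCDD at 19 h in red and TCDD at 3 h in orange and bars for the mean and SD of 4 rats. Ndufc1 corn oil values of L-E rats (11.10 to 11.17) lie above those of H/W rats (10.60 to 10.78).

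At 3 h after TCDD the strains also differed in some of these genes. No corn oil group of 3 h was analysed here, so strain and a strain-dependent early response cannot be told apart. In L-E rats 11 of the 88 genes were higher than in H/W rats (1.58% of all genes) and 0 were lower (0.605%). Complexes I, IV and V were involved: complex V gave Atp5f1a, Atp5f1b, Atp5f1c and Atp5f1d, complex IV gave Cox4i1, Cox6a1, Cox7c and Cox8a with the related Cox7a2l, and complex I gave Ndufc1 and Ndufb9. Cox7a2l acts in joining complexes into supercomplexes.

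Ndufc1 had the largest of these differences, with 11.18, 11.27, 11.21 and 11.18 in L-E and 10.50, 10.57, 10.66 and 10.55 in H/W rats. Atp5f1a, the alpha subunit of ATP synthase, read 12.52, 12.50, 12.57 and 12.50 in L-E and 12.24, 12.14, 12.17 and 12.20 in H/W rats. Cox7a2l read 10.01, 10.10, 10.14 and 10.12 in L-E and 9.57, 9.67, 9.52 and 9.68 in H/W rats. All L-E rats lay above all H/W rats for each of the 3. The differences were 0.64 ± 0.04, 0.34 ± 0.03 and 0.48 ± 0.05 (adjusted p from limma 0.000368, 0.00159 and 0.00274). Atp5f1d, the delta subunit, differed by 0.34, Cox8a by 0.48, Cox7c by 0.35 and Atp5f1c by 0.30 (0.00441, 0.00967, 0.00856 and 0.00967 by limma). The smaller calls were Atp5f1b and Cox6a1, each at 0.25, Cox4i1 at 0.25 and Ndufb9 at 0.21 (0.00603, 0.00789, 0.00967 and 0.00914 by limma).

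Across the 88 genes, 78 were higher in L-E rats at 3 h (36.2% of all genes and 54.8% of the 6246 genes of higher signal), with a median of 0.19 beside -0.04 over all genes and 0.03 in the upper 60%. In complex V 16 of 16 were above 0 with a median of 0.22, in complex III 7 of 7 with 0.20, in complex I 36 of 39 with 0.16, in complex II 7 of 8 with 0.16 and in complex IV 12 of 18 with 0.18. The 10 liver subunits of complex IV were all above 0, and the 5 isoforms of other tissues were all below 0, at -0.05 to -0.03. At an adjusted p under 0.05, 33 were higher (4.72%) and 0 lower (1.96%), and at an unadjusted p under 0.05, 53 were higher (12.9%) and 2 lower (22.3%). Groups were separate and higher in L-E rats for 46 genes (8.79% of all genes) and lower for 3 (23.7%). The medians of the complex V genes ran from 11.17 to 11.27 on the L-E arrays and from 10.80 to 11.02 on the H/W arrays. Sdhb, the iron-sulphur subunit of complex II, and Atp5po were among the genes that missed the threshold, at 0.29 and 0.50 (0.0122 and 0.0135 by limma).

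These 3 h counts depend on scale and on single arrays. With quantile normalization over the 40 arrays 2 of the 88 genes passed and the median difference was 0.10. Without 1 array at a time between 2 and 6 passed: Ndufc1 and Atp5f1a passed in all 8 fits, Cox7a2l in 5, Atp5f1d in 2, Ndufb9 in 1 and the other 6 in none. Kupffer and immune cell markers averaged 7.54 to 8.10 on the L-E arrays and 6.97 to 7.37 on the H/W arrays (7 of 8 above 0, median 0.65), hepatocyte markers averaged 13.73 to 13.82 and 13.62 to 13.70, and 0 of the 8 blood, muscle and fat markers were above 0. Their part was not tested.

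**Figure D5:**
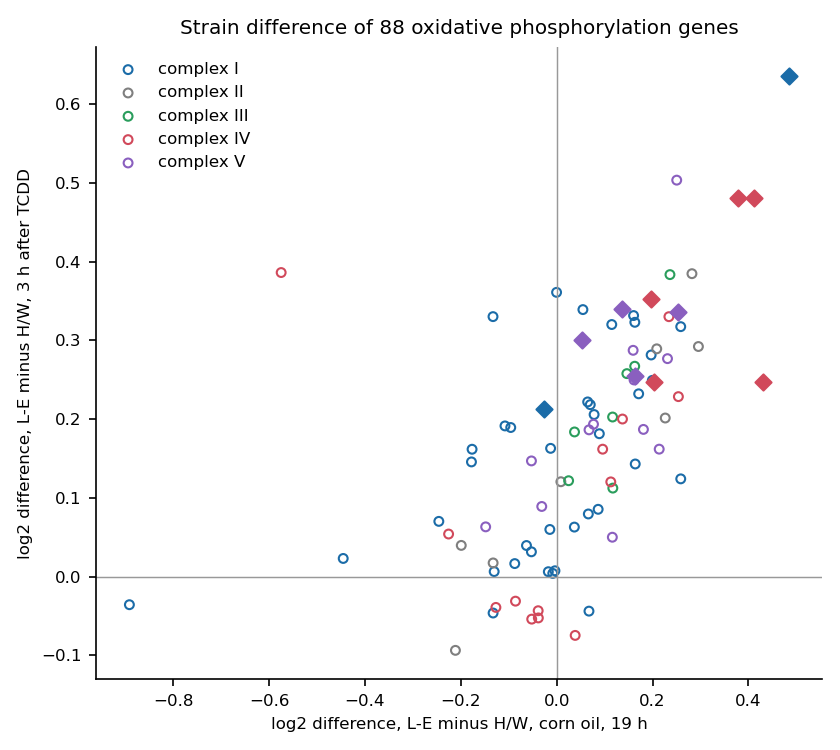
L-E minus H/W log2 difference in corn oil rats at 19 h (horizontal axis) and in TCDD rats at 3 h (vertical axis) for the 88 genes, with diamonds for the 11 called at 3 h. Of the 78 genes above 0 at 3 h, 53 were also above 0 in corn oil rats, as were 55 of all 88.

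The direction at 3 h was also seen in corn oil rats for many of the genes. Of the 78 above 0 at 3 h, 53 were above 0 in corn oil rats at 19 h. Of the 88 as a whole 55 (62.5%) were, so the share among the 78 was close to that of the 88. Over all genes, 2054 of the 3766 above 0 at 3 h were above 0 in corn oil rats, where 30.2% of all genes were. Of the 11 called at 3 h, 10 were above 0 in corn oil rats, and Ndufc1, Cox4i1 and Cox8a were called there too. Over all genes, 129 of the 164 called higher at 3 h were above 0 in corn oil rats, and 21 were called in both. Ndufc1 in TCDD rats at 3 h averaged 11.21 ± 0.04 (SD, n = 4) in L-E and 10.57 ± 0.06 in H/W rats, beside corn oil means at 19 h of 11.14 ± 0.03 and 10.66 ± 0.08. For Atp5f1c the 3 h means were 12.56 ± 0.07 in L-E and 12.26 ± 0.05 in H/W rats, beside 12.47 ± 0.12 and 12.41 ± 0.14 with corn oil at 19 h.

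The neighbouring mitochondrial genes were read from 6 lists. In the mitochondrial ribosome list, 71 genes were measured, and 63, 67, 63 and 41 were above 0 with TCDD at 19 h in L-E, LnC, LnA and H/W rats, with medians of 0.19, 0.27, 0.20 and 0.07. Mrpl33, a protein of the large subunit, rose by 1.26 ± 0.14 in L-E, 1.15 ± 0.08 in LnC and 1.18 ± 0.11 in LnA rats (adjusted p from limma 0.00366, 0.000815 and 0.00285), and in H/W rats the difference was 1.03 (0.0195 by limma). It was the 1 called gene of the 71 in L-E rats (0.941% of all genes) and in LnC rats (0.644%), and in LnA rats 3 passed without a block (0.73%), with Mrps26 at 0.52 and Mrps34 at 0.71. In the assembly list of 21 genes, Acad9, a complex I assembly factor, rose in L-E rats by 0.63, a call lost in 7 of 8 fits without 1 array. Oxa1l, which inserts proteins into the inner membrane, and Slc25a3, the phosphate carrier that feeds ATP synthase, passed in LnA rats at 0.34 and 0.35. When same-numbered LnA rats were paired, 0 of these 5 calls remained, and the blocked adjusted p by limma was 0.0112 for Mrpl33 and Mrps34, 0.0249 for Mrps26, 0.0496 for Oxa1l and 0.0581 for Slc25a3. The Mrpl33 call was lost without 1 array in 6 of 8 fits in L-E, 0 of 8 in LnC and 2 of 8 in LnA rats.

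The citric acid cycle and pyruvate dehydrogenase list of 20 genes had medians of -0.03, 0.04, -0.03 and -0.00 in L-E, LnC, LnA and H/W rats. Its 1 call was Pdha1, a subunit of pyruvate dehydrogenase, which fell by 0.54 on the log2 scale in LnC rats, and in the list of 13 exchange genes Ak3, a mitochondrial adenylate kinase, fell by 0.47 there (0.49% of all genes fell in LnC rats). Without 1 array the Pdha1 call was lost in 7 of 8 fits and that of Ak3 in 0. None of the 13 electron carrier genes and none of the 13 biogenesis genes was called in a TCDD comparison. Between 0.106% and 1.11% of all genes were called in each direction there, so a count of 0 in lists this short is near that share. In corn oil rats the lists gave Etfdh (0.57), Mfn2 (0.45) and Mrpl1 (-0.71) for L-E minus H/W, Nnt (0.54), Idh3g (0.63), Slc25a5 (0.34) and Mfn2 (0.40) for LnA minus H/W, and Cox16 (0.53), Mrps17 (0.55), Suclg1 (-0.55) and Slc25a3 (-0.33) for LnC minus L-E. Each of these calls was lost in 3 or 4 of the 4 fits without 1 replicate number. Over all genes, 0.634% were called higher and 0.365% lower for L-E minus H/W. The shares were 0.999% and 0.903% for LnA minus H/W, and 1.14% and 1.27% for LnC minus L-E. Line against parental strain cannot be told apart from scan day here. At 3 h the L-E rats were higher than H/W rats for 7 of the 71 genes of the mitochondrial ribosome (1.58% of all genes): Mrpl3 (0.64), Mrpl16 (0.33), Mrpl22 (0.50), Mrpl52 (0.41), Mrpl54 (0.46), Mrps24 (0.43) and Mrps35 (0.75). They were also higher for Vdac1 (0.49), Slc25a3 (0.39), Ogdh (0.40) and Suclg1 (0.23), and lower for Suclg2 (-0.34, with 0.605% of all genes lower). With quantile normalization 6 of these 12 genes passed, 4 of them ribosomal, and without 1 array between 3 and 6 passed, with Mrpl3 called in all 8 fits, Mrps24 in 7 and Vdac1 in 6.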

How the data were processed

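Rat liver RNA was hybridised to 40 Affymetrix RAE230A arrays, and groups were taken from the sample labels. The deposited values are log2 signals, for which the authors ran R 2.3.1 with affy 1.10.0 and the GCRMA package 2.4.1 (tools listed in the submitters' processing notes), while the paper describes RMA with an Entrez Gene probe map. All columns of the table were used (0 left out). The array has 15923 probe sets, 57 of them controls. Among the remaining 15866, 12783 carry 1 symbol, 312 carry several and 2771 carry none. The 12783 give 10411 genes with 1 probe set each, the brightest at 19 h. The rule's prefixes took in 94 probe sets and 88 genes (5 had more than 1), and 7 probe sets with several symbols were fitted separately, a choice made after seeing the data.

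Differences were tested with limma 3.58.1 (R 4.3.3) with Benjamini-Hochberg adjustment over all genes and called at an adjusted p under 0.01. TCDD minus corn oil was fitted per strain/line (8 arrays), as in the study's methods, and comparisons added here were interactions (16 or 32 arrays), corn oil groups (16 arrays) and L-E minus H/W at 3 h (8 arrays). Scripts were tested on simulated data. Named by rule are the genes called, the highest and lowest value per complex and strain/line, tissue isoforms and, from the lists, called genes. Atp5mg, Cox5b, Ndufab1, Ndufb5, Ndufb8, Ndufs3 and Sdhb were named after their values were seen. The members and lists were chosen with earlier results of these data known. The deviations of same-numbered rats had all r above 0.1 in LnA only (0.119 to 0.164 over 2245 genes). There the labels' numbers were taken as pairs in the replicate block, while the calls come from fits without a block. The r ran from 0.0659 to 0.287 in L-E, from 0.0111 to 0.149 in H/W and from -0.264 to 0.0913 in LnC rats. Alternatives were the mean of probe sets, leaving out the lowest 40% of genes by signal, quantile normalization, median centring, a threshold of 0.05, limma trend, replicate and scan day blocks, 1 fit over the 8 groups and leaving out replicates (for list genes, run after seeing the data). The number of arrays limits the precision. The p-values weigh a difference against the spread among rats of a group, which by the study's methods shared a cage. Spread between cages is not covered. Figures were drawn with matplotlib 3.10.9 in Python 3.11.15.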

Additional observations from a re-analysis of the deposited data

Results flagged for a closer look

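Among 19 genes in 190 groups of 4 rats, 18 groups had 1 rat far from the other 3. In corn oil rats these were Atp5f1a L-E replicate 4 (12.59, the others 12.48 to 12.50) and H/W replicate 3 (12.44), Cox7c H/W replicate 3 (11.58), Cox8a L-E replicate 4 (12.39) and H/W replicate 4 (11.63), Ndufb9 H/W replicate 3 (12.21), Ndufc1 LnA replicate 1 (11.29) and H/W replicate 1 (10.78), Ndufv3 L-E replicate 4 (9.98) and Uqcr10 LnA replicate 4 (11.46). In TCDD rats at 19 h they were all H/W: Atp5f1b replicate 2 (13.07), Atp5po replicate 3 (11.08), Cox7b replicate 1 (12.53), Uqcr10 replicate 2 (11.54) and Uqcrc1 replicate 1 (10.32). At 3 h they were Atp5f1c H/W replicate 4 (12.34), Cox6a1 L-E replicate 1 (11.52) and Cox7b L-E replicate 1 (12.90). Chance flags about 1 in 20 independent groups, but the 19 genes were read on the same arrays. The count of 18 can therefore not be set against that rate. 

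Among the 7 probe sets with several symbols, left out of the rule, 3 passed an adjusted p under 0.01 by limma in a fit over all probe sets. The set shared by Cox5a and LOC100361008 was higher with TCDD by 0.78 in L-E, 0.67 in LnC and 0.56 in LnA rats. The set shared by Ndufa10 and Ndufa10l1 was higher in L-E than in H/W rats by 1.21 and in LnA than in H/W rats by 1.68 with corn oil. The set shared by Atp5mc2 and Atp5mc2l1 was lower in LnC than in L-E rats with corn oil, at -0.46.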

How the results depend on the processing

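The number of the 88 genes called moved with several settings. For TCDD against corn oil, L-E rats (2 called) gave 0 with median centring, 0 with the replicate block, 0 with the scan day block, 8 at a threshold of 0.05 and 5 in 1 fit over the 8 groups. LnC rats (2) gave 9 at 0.05, 0 with the replicate block and 5 in 1 fit. LnA rats (1) gave 0 without low genes, with median centring, with limma trend and with the replicate block, 5 at 0.05 and 2 in 1 fit, and H/W rats (0) gave 1 in 1 fit. In corn oil rats, L-E against H/W (3) gave 5 at 0.05 and 1 with either the replicate or the scan day block, LnC against LnA (0) gave 2 at 0.05, LnA against H/W (5) gave 1 with median centring and 17 at 0.05, and LnC against L-E (1) gave 2 with quantile normalization, 2 with median centring, 8 at 0.05 and 0 with the replicate block. At 3 h (11) the count was 6 without low genes, 2 with quantile normalization, 33 at 0.05, 6 with limma trend and 1 with the replicate block. Without 1 replicate, counts ranged from 0 to 1 for L-E, 0 to 3 for LnC, 0 to 0 for LnA and H/W rats and for the interactions, 0 to 1 for L-E against H/W, 0 to 0 for LnC against LnA, 0 to 1 for LnA against H/W and for LnC against L-E, and 2 to 6 at 3 h. The cause was not tested.

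The median difference of the 88 genes stayed above 0 in L-E (0.07 to 0.14), LnC (0.16 to 0.19) and LnA rats (0.07 to 0.14) and at 3 h (0.10 to 0.23). It turned in H/W rats without corn oil replicate 2 (-0.000153, with 0.0808 as the highest value without 1 array), in the L-E minus H/W interaction with median centring (-0.0269), and in LnC minus L-E corn oil rats with median centring (-0.0629) and without replicate 3 (-0.0033, with up to 0.0292 without another). None of the 25 called results of single genes changed direction: of their 324 alternatives, 144 kept the call and 180 lost it. No scan day block was run where all arrays shared a day or the groups had separate days (LnA, LnC, their contrasts and 3 h). Except in LnA rats the replicate numbers were not taken as pairs.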
